A study of Mus musculus with 10 samples.

Results

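The Slc25 genes encode the mitochondrial carrier family, solute carriers that move nucleotides, phosphate, organic acids, amino acids and cofactors, mostly across the inner mitochondrial membrane. Members were taken by name: every row of the array whose platform annotation gives 1 gene symbol made of Slc25a and a number. This gave 46 of the 30142 genes measured, each on a single row.

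Whole-kidney RNA came from 5-week-old mice, 5 with a tubule-specific loss of Lkb1 (gene Stk11) and 5 controls, each mouse on its own Affymetrix array. The knockouts carried floxed Stk11 (Stk11tm1.1Sjm) and the KspCre transgene, in which the promoter of Cdh16, a kidney-specific cadherin gene of tubule epithelium, drives Cre. Controls, labelled wild type, were littermates with 1 or 2 floxed alleles and no Cre, so the transgene itself and the loss of Lkb1 cannot be told apart. The titles call the first group a knockdown, the protocol describes a Cre knockout, and the protocol's name is used here. The strain label reads C57Bl/6N, while the protocol gives the floxed mice a mixed background. The series' design text names MDCK cells, whereas all 10 samples are labelled as mouse kidney.

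Slc25 proteins are built from repeats of a common membrane fold, and many exchange 1 substrate for another between cytosol and matrix. ADP/ATP and phosphate carriers feed ATP synthase, oxoglutarate and aspartate/glutamate carriers run the malate-aspartate shuttle, and other members bring in acylcarnitines, iron, folate or coenzyme A. Kidney tubules, above all the proximal tubule and thick ascending limb, are rich in mitochondria and pay for solute reabsorption with ATP made there. Lkb1 is an upstream kinase of AMPK, an energy sensor with many links to mitochondria.

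Values are RMA (robust multi-array average) log2 signals, and each difference is the knockout mean minus the control mean. A signal depends on the probes, so signals of different genes are not compared. The arrays had medians of 5.35 to 5.42 and correlated at 0.992 to 0.998 over all genes. Stk11 lay between 9.07 and 9.31 in knockout kidneys, against 9.40 to 9.48 in control kidneys, with no overlap (difference -0.25, SE 0.05, adjusted p = 0.00749; exact permutation p = 0.00794, the smallest that 5 against 5 allows). The tissue label was checked on 19 proximal tubule markers, whose mean signal was 11.86 to 12.11 in knockout kidneys and 12.12 to 12.19 in control kidneys. In whole-kidney RNA, fewer cells of a type and less RNA per cell cannot be told apart.

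Knockout kidneys had more mRNA of 1 mitochondrial carrier and slightly less of several others. Slc25a24, a calcium-regulated carrier that exchanges ATP-Mg for phosphate, was 1.91-fold higher. Slc25a35, the phosphate carrier Slc25a3 and the oxoglutarate carrier Slc25a11 were lower, at 77.6%, 90.7% and 87.8% of the control level. The other 42 members did not pass the threshold, which was an adjusted p of 0.05 by limma over all 30142 genes.

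The 4 calls among 46 members are 8.7% of the family, and 8.03% of all genes were called, so the share called in either direction is near that of the array as a whole. Above the median of the negative control rows these shares were 9.3% and 11.3%. By direction, 1 of 46 members was higher where 5.35% of all genes were. The 3 lower members were 6.52% of the family, where 2.67% of all genes were lower. The lower calls depended on the scaling of the arrays. After quantile normalization the family held 1 higher and 12 lower calls, and 1686 of all genes were higher and 1084 lower (3.6%). With each array centred on its median the family held 1 of each, and 1323 of all genes were higher and 610 lower (2.02%). With the values as deposited, an unadjusted p of 0.05 was passed upward by 2 of 46 members and downward by 13 of 46, against 10.9% and 12% of all genes.

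**Figure D1:**
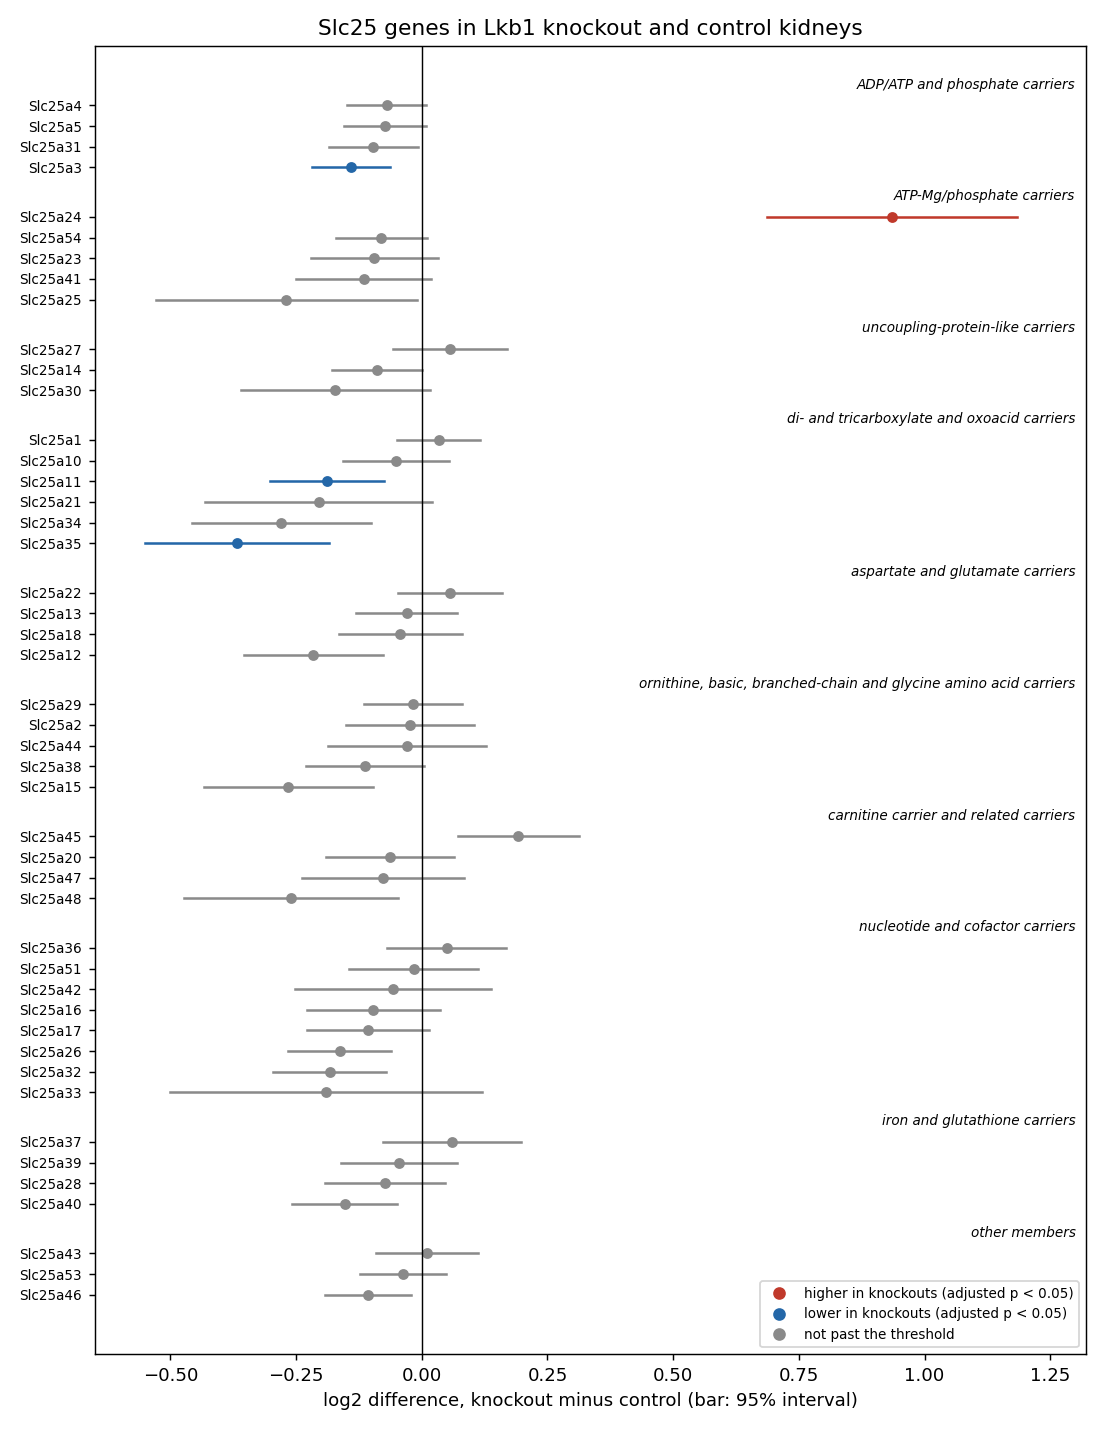
Log2 difference, knockout minus control, of each of the 46 Slc25 genes with its 95% interval (5 kidneys a group), grouped by the kind of substrate, with knockout-higher genes in red, knockout-lower genes in blue and genes not past the threshold in grey. Slc25a24 stands alone at 0.94, and the points of the other members lie between -0.37 and 0.19.

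Slc25a24 had the highest difference of the family. It lies on chromosome 3 at 109123149 to 109168409 (GRCm38.p6, the mm10 build). Its signal was 7.65, 7.63, 7.83, 7.27 and 7.26 in knockout kidneys 1 to 5, against 6.42, 6.72, 6.60, 6.80 and 6.43 in control kidneys 1 to 5. Every knockout kidney lay above every control kidney, and knockouts 4 and 5 were the lowest of the knockouts. The means were 7.53 ± 0.25 in knockout kidneys and 6.59 ± 0.17 in control kidneys (SD, n = 5 each), a difference of 0.94 (SE 0.11, adjusted p = 0.000617). The 95% interval of the fold was 1.61 to 2.27, and leaving out any single kidney kept the call, with adjusted p from 0.000191 to 0.00271.

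Macrophage and fibroblast markers rose in the same kidneys as Slc25a24. All 15 macrophage markers were called higher (median difference 0.95), where 5.35% of all genes were (10.9% at an unadjusted p of 0.05 by limma). Their mean signal was 7.39 to 8.13 in knockout kidneys and 6.71 to 6.98 in control kidneys. Of 7 fibroblast markers 6 were higher and 0 lower (7 and 0 at an unadjusted p of 0.05; median 1.21), with a mean signal of 8.96 to 9.67 in knockout kidneys and 8.09 to 8.38 in control kidneys. Averaged over all 10 kidneys, none of the markers in these lists lay below the median of the negative control rows, 5.23. That average can rest on the higher group. The fibroblast marker Lum averaged 5.01 in control kidneys, below this median, and 6.54 in knockout kidneys. Knockout kidneys 4 and 5, which had the lowest Slc25a24 of the knockouts, also had the smallest rise of the macrophage markers, 0.74 and 0.57 above the control mean, against 1.15 to 1.31 in the other knockouts. The part of these cells in the rise of Slc25a24 was not tested.

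The other ATP-Mg/phosphate carriers did not rise with it. Slc25a25, another calcium-regulated carrier of this group, measured 9.36, 9.19, 8.99, 9.55 and 9.49 in knockout kidneys 1 to 5, against 9.83, 9.37, 9.54, 9.37 and 9.81 in control kidneys 1 to 5. The groups overlapped, and the difference of -0.27 (SE 0.12, adjusted p = 0.201) did not pass. Slc25a23 (-0.09) and Slc25a41 (-0.12) did not pass either. Slc25a54 is the neighbour of Slc25a24, with 6566 bases between the annotated genes, and its signal lay below the median of the negative control rows in both groups (4.03 in knockout kidneys and 4.11 in control kidneys).

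The 250 bases upstream of the annotated start of Slc25a24, from RefSeq (GRCm38.p6, chr3:109122899-109123148, plus strand), are shown because this is the member that rose. Capitals mark GC boxes, the letters GGGCGG or their reverse complement, to which Sp1-type factors are known to bind.

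Slc25a24: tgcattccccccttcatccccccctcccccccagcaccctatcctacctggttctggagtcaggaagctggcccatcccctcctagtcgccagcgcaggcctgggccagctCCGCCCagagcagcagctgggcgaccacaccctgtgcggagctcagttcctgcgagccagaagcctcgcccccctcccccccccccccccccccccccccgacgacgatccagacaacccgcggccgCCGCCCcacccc

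The sequence is 72.8% G and C. The median was 52.4% in all windows and 57.4% in the 46 windows of the 36 Slc25 genes found in the promoter table. GC boxes stood in 32 of these 46 windows (69.6%) and in 32.7% of all 32851 windows of this length.

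**Figure D2:**
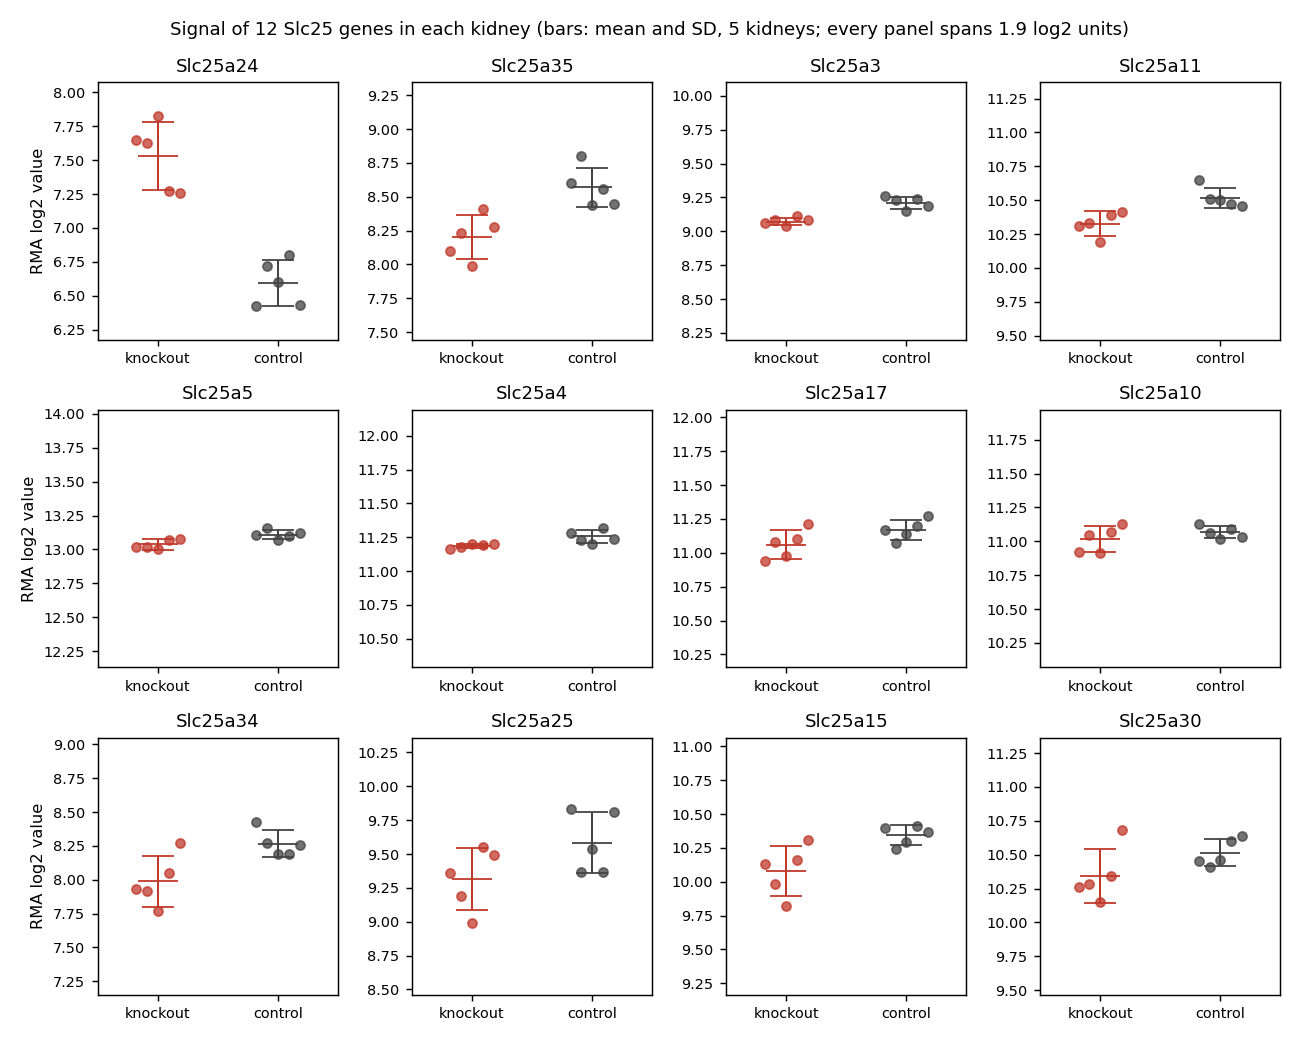
RMA log2 signal of 12 Slc25 genes in each of the 5 knockout and 5 control kidneys, with the mean and SD, every panel spanning the same range. Slc25a24 shows the widest separation, with knockouts at 7.26 to 7.83 and controls at 6.42 to 6.80, while the lower genes shift by a small part of a panel.

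Among the carriers of organic acids, 2 of 6 members were lower and 0 higher (3 and 0 at an unadjusted p of 0.05), with a median difference of -0.20. Over all genes 2.67% were called lower and 5.35% higher, and 12% and 10.9% at an unadjusted p of 0.05 by limma. Slc25a35 is placed here for its likeness to dicarboxylate carriers, and its substrate is not well known. It measured 8.10, 8.23, 7.99, 8.41 and 8.28 in knockout kidneys 1 to 5, against 8.60, 8.80, 8.44, 8.56 and 8.45 in control kidneys 1 to 5. The groups did not overlap, although knockout 4 lay within 0.1 of controls 3 and 5. The difference was -0.37 (SE 0.08, adjusted p = 0.019). It stayed past the threshold in all 10 fits that left out 1 kidney, narrowly so without knockout 1, where the adjusted p rounds to 0.05.

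Slc25a11 exchanges oxoglutarate for malate and is a part of the malate-aspartate shuttle. Its signal was 10.31, 10.33, 10.19, 10.39 and 10.41 in knockout kidneys 1 to 5, against 10.65, 10.51, 10.50, 10.47 and 10.46 in control kidneys 1 to 5. All knockouts lay below all controls, with control 1 the highest and knockout 3 the lowest. The difference of -0.19 (SE 0.05, adjusted p = 0.0452) was close to the threshold. It was lost in 9 of 10 fits that left out 1 kidney, with adjusted p up to 0.0947, without the mean-variance trend (adjusted p = 0.0521) and with the arrays centred on their medians (adjusted p = 0.0977).

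The 250 bases upstream of 1 annotated start of Slc25a11 (RefSeq, GRCm38.p6, chr11:70647040-70647289, minus strand) are shown for a short repeated element. The gene is annotated at 70644019 to 70647531, so this start and the whole window lie inside the annotated gene. Capitals mark the letters TCGCGAGA or their reverse complement, an element known from promoters of widely expressed genes, and a GC box.

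Slc25a11: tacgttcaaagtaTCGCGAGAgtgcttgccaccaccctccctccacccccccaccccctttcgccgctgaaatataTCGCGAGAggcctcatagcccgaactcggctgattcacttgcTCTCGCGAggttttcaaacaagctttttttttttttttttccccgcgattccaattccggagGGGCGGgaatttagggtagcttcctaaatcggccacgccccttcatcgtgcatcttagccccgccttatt

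The element occurred 3 times here, at 237, 174 and 132 bases upstream of the start that the window precedes. It was found in 0.858% of all windows and in 2 Slc25 genes, Slc25a11 and Slc25a4.

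Other organic acid carriers did not pass. Slc25a34, a relative of Slc25a35, measured 7.93, 7.92, 7.77, 8.05 and 8.27 in knockout kidneys 1 to 5, against 8.43, 8.27, 8.19, 8.19 and 8.26 in control kidneys 1 to 5. Knockout 5 lay among the controls and the other knockouts lay below them (difference -0.28, SE 0.08, adjusted p = 0.0577). Without knockout 5 it passed, with a difference of -0.35 and adjusted p = 0.00479. It also passed after quantile normalization (0.045), with dim genes left out (0.044) and with array weights (0.0309). It did not pass in the other 9 fits that left out 1 kidney (adjusted p up to 0.129). Nor did it pass with the arrays centred on their medians (0.0915), the replicate number as a block (0.055) or no mean-variance trend (0.061). The dicarboxylate carrier Slc25a10 measured 10.92, 11.05, 10.91, 11.07 and 11.13 in knockout kidneys 1 to 5, against 11.13, 11.06, 11.02, 11.09 and 11.03 in control kidneys 1 to 5, and the groups overlapped (-0.05, adjusted p = 0.563; -0.13 and 0.12 after quantile normalization). The citrate carrier Slc25a1 (0.03) and the oxodicarboxylate carrier Slc25a21 (-0.20) did not pass.

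The carriers that supply ATP synthase had small negative differences. Slc25a3, which imports phosphate, lies on chromosome 10 at 91116574 to 91124046. It measured 9.06, 9.08, 9.04, 9.11 and 9.08 in knockout kidneys 1 to 5, against 9.26, 9.23, 9.15, 9.24 and 9.19 in control kidneys 1 to 5. All knockouts lay below all controls and the replicates were tight, with SDs of 0.03 in knockout kidneys and 0.04 in control kidneys. The difference was -0.14 (SE 0.04, adjusted p = 0.0327). The call was lost in 7 of 10 fits that left out 1 kidney (adjusted p up to 0.0775) and with the arrays centred on their medians (adjusted p = 0.126).

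The 250 bases upstream of 1 annotated start of Slc25a3 (RefSeq, GRCm38.p6, chr10:91123968-91124217, minus strand) are shown because they held 4 of the 6 motifs searched. The gene is annotated up to 91124046, so this start lies inside it and the window partly overlaps the gene. From the 5′ end the capitals mark matches to the NRF1 motif, an ETS motif, the GC box and the core of the cAMP response element. NRF1 and the ETS factor GABP are known regulators of nuclear genes for mitochondrial proteins, and CREB binds the cAMP response element.

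Slc25a3: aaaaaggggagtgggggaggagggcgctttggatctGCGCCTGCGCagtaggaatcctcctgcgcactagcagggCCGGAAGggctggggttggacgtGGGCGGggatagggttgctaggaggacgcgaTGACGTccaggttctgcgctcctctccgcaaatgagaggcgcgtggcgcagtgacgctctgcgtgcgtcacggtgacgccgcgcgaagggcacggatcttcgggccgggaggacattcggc

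The NRF1 motif was in 3.74% of all windows and in 2 Slc25 genes (Slc25a3 and Slc25a31). The cAMP response element core TGACGT was in 6.47% of all windows and in 4 Slc25 genes. The ETS motif CCGGAAG was in 6.91% of all windows and in 6 Slc25 genes. The oestrogen-related receptor motif TNAAGGTCA was in 1.14% of all windows and in none of the 46 windows of Slc25 genes. Both strands were searched, and the matches shown do not overlap each other. These are matches of letters and not measured binding sites.

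The ADP/ATP carriers Slc25a5 and Slc25a4, which swap matrix ATP for cytosolic ADP, did not pass. Slc25a5 measured 13.02, 13.02, 13.00, 13.07 and 13.08 in knockout kidneys 1 to 5, against 13.11, 13.16, 13.07, 13.10 and 13.12 in control kidneys 1 to 5. Its groups overlapped at control 3, which lay at or below knockouts 4 and 5, and the difference was -0.07 (95% interval -0.16 to 0.01, adjusted p = 0.265). Slc25a4 measured 11.16, 11.18, 11.20, 11.19 and 11.20 in knockout kidneys 1 to 5, against 11.28, 11.23, 11.20, 11.32 and 11.24 in control kidneys 1 to 5. The knockouts were at or below the lowest control (-0.07, 95% interval -0.15 to 0.01, adjusted p = 0.269). Both became calls after quantile normalization, with adjusted p = 0.0464 for Slc25a5 and 0.0308 for Slc25a4. Slc25a31, the germ cell ADP/ATP carrier, had a signal below the median of the negative control rows, at 3.31 in knockout kidneys and 3.40 in control kidneys.

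None of the 9 measured aspartate, glutamate, ornithine and other amino acid carriers passed (0 higher and 2 lower at an unadjusted p of 0.05 by limma). Slc25a15, the ornithine carrier of the urea cycle, measured 10.13, 9.98, 9.82, 10.16 and 10.31 in knockout kidneys 1 to 5, against 10.40, 10.24, 10.29, 10.41 and 10.37 in control kidneys 1 to 5. Knockout 5 overlapped the controls and the difference was -0.27 (SE 0.08, adjusted p = 0.0561). Without knockout 5 it passed (-0.32, adjusted p = 0.0111), as it did after quantile normalization (0.0298) and with dim genes left out (0.043). Array weights (0.0245) and the replicate number as a block (0.0242) also gave a call. It did not pass in the other 9 fits that left out 1 kidney (adjusted p up to 0.133). Nor did it pass with the arrays centred on their medians (0.0871). The aspartate/glutamate carriers Slc25a12 (-0.22, adjusted p = 0.0585) and Slc25a13 (-0.03) and the glutamate carriers Slc25a22 (0.06) and Slc25a18 (-0.04) did not pass. Slc25a12 passed as lower after quantile normalization, with dim genes left out, with array weights, with the replicate block and without knockout 5. It did not pass with centred arrays or in the other fits that left out 1 kidney. The glycine carrier Slc25a38 differed by -0.11, the branched-chain amino acid carrier Slc25a44 by -0.03 and the basic amino acid carrier Slc25a29 by -0.02. Slc25a2 lay below the median of the negative control rows.

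Carriers of nucleotides and cofactors gave no call among 8 members (0 higher and 2 lower at an unadjusted p of 0.05 by limma). Slc25a32, which carries folate and FAD, missed the threshold narrowly, with all knockouts below all controls (7.63 ± 0.09 in knockout kidneys and 7.81 ± 0.07 in control kidneys, SD, n = 5 each; difference -0.18, adjusted p = 0.0502). It passed after quantile normalization (adjusted p = 0.0203), with dim genes left out (0.0359), with array weights (0.0459) and with the replicate number as a block (0.0467). It did not pass in 8 of 10 fits that left out 1 kidney (adjusted p up to 0.116). Nor did it pass with the arrays centred on their medians (0.135). The S-adenosylmethionine carrier Slc25a26 differed by -0.16 (adjusted p = 0.0538). Slc25a26 passed as lower after quantile normalization, with dim genes left out, with array weights and without knockout 5. It did not pass with centred arrays, with the replicate block or in the other fits that left out 1 kidney. Slc25a17, the carrier of the peroxisomal membrane, measured 10.94, 11.08, 10.98, 11.10 and 11.21 in knockout kidneys 1 to 5, against 11.17, 11.07, 11.14, 11.20 and 11.27 in control kidneys 1 to 5. Its groups overlapped (-0.11, adjusted p = 0.276), and after quantile normalization it passed (-0.19, adjusted p = 0.0497). The NAD carrier Slc25a51 (-0.02), the coenzyme A carriers Slc25a42 (-0.06) and Slc25a16 (-0.10) and the pyrimidine nucleotide carriers Slc25a36 (0.05) and Slc25a33 (-0.19) did not pass.

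Slc25a30, first described as a kidney mitochondrial carrier, measured 10.26, 10.28, 10.15, 10.34 and 10.68 in knockout kidneys 1 to 5, against 10.45, 10.41, 10.46, 10.60 and 10.64 in control kidneys 1 to 5. Knockout 5 was the highest of all 10 kidneys and the other knockouts lay below all controls. The difference was -0.17 (SE 0.09, adjusted p = 0.256), and without knockout 5 it was -0.26 (adjusted p = 0.0163). Slc25a30 did not pass in the other 9 fits that left out 1 kidney (adjusted p up to 0.459). Its uncoupling-protein-like relatives Slc25a14 (-0.09) and Slc25a27 (0.06) did not pass.

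The carnitine/acylcarnitine carrier Slc25a20, which brings fatty acids in for oxidation, differed by -0.06 (95% interval -0.19 to 0.06). Its relatives Slc25a45 (0.19, adjusted p = 0.0538), Slc25a47 (-0.08) and Slc25a48 (-0.26, adjusted p = 0.132) did not pass. Slc25a45 passed as higher with dim genes left out, with array weights, with the replicate block, without control 2 and without knockout 3. Slc25a48 passed as lower without knockout 5. The mitoferrins Slc25a37 (0.06) and Slc25a28 (-0.07), which import iron, and the glutathione carriers Slc25a39 (-0.04) and Slc25a40 (-0.15, adjusted p = 0.0733) did not pass. For Slc25a40, all knockouts (7.22 ± 0.04) lay below all controls (7.37 ± 0.09; SD, n = 5 each). The outer-membrane member Slc25a46 (-0.11), Slc25a43 (0.01) and Slc25a53 (-0.04) did not pass, and Slc25a46 passed as lower after quantile normalization.

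Across the family 38 members had a negative and 8 a positive difference, so 82.6% were negative, where 61.8% of all genes were. The median difference was -0.08, against -0.03 over all genes. Above the median of the negative control rows, 81.4% of the members and 56.2% of all genes were negative. Of the 23 brighter members 87% were negative, against 49.6% of all genes at least as bright as the dimmest of them. The negative count was 37 after quantile normalization and 38 with arrays centred on their medians. These balances are descriptions without a test, since members share kidneys and arrays. Groups did not overlap for 8 members, where they did not for 8.57% of all genes. In knockouts 7 of the 46 members were lower without overlap and 1 of 46 higher, where 3.5% and 5.07% of all genes were.

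**Figure D3:**
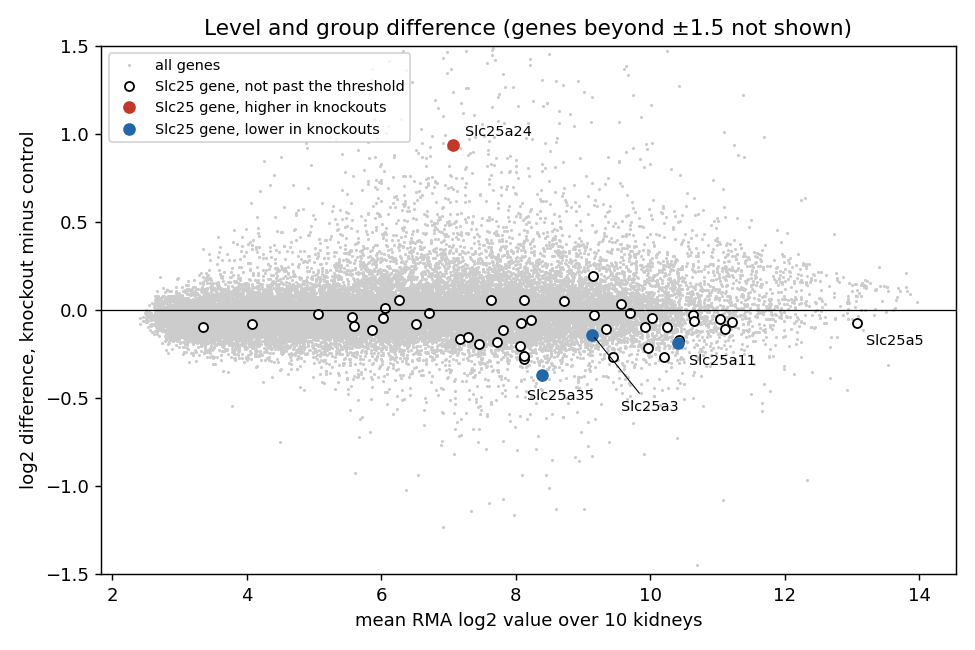
Log2 difference, knockout minus control, against the mean RMA log2 signal over the 10 kidneys, with all genes in grey and the 46 Slc25 genes as circles. Of the Slc25 circles 38 lie below 0, and Slc25a24 at 0.94 is the one far above it.

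Deviations from the control mean were uneven among the knockout kidneys. The median deviation of the 46 genes from the control mean was -0.11, -0.08, -0.16, -0.04 and -0.02 in knockout kidneys 1 to 5, against 0.03, 0.01, -0.04, -0.01 and 0.00 in control kidneys 1 to 5. Knockout 3 was thus the lowest and knockouts 4 and 5 lay within the control range. Knockout 3 held the lowest value of the 5 knockouts for 27 of 46 genes, and knockout 5 the highest for 24. The SD was larger among knockouts than among controls for 35 of 46 members (76.1%), where it was for 47.6% of all genes. Without knockout 5, the counts for the family were 1 higher and 10 lower, and 4.88% of all genes were lower.

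**Figure D4:**
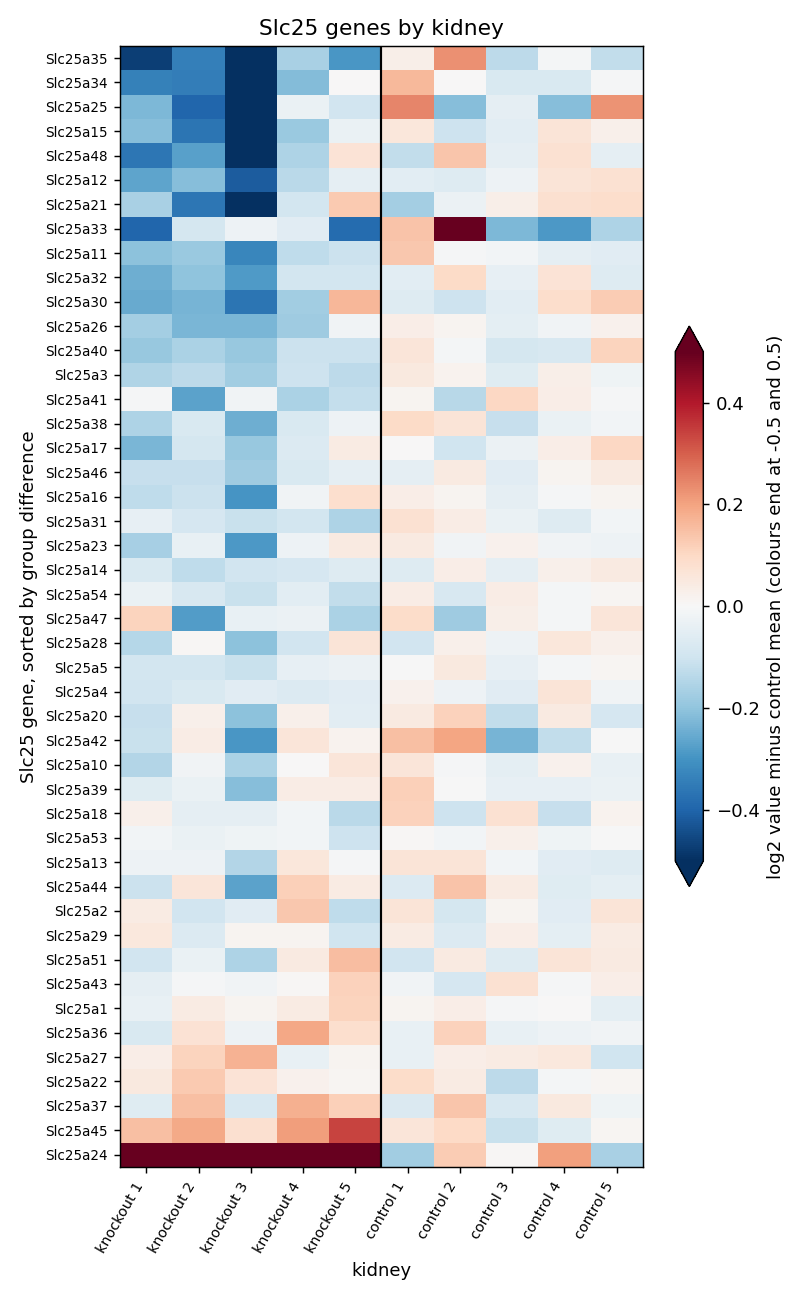
Log2 value minus the control mean for the 46 Slc25 genes (rows, sorted by group difference) in the 5 knockout and 5 control kidneys (columns), with blue below and red above the control mean and colours ending at -0.5 and 0.5. Knockout 3 is the bluest column and knockouts 4 and 5 are paler, while Slc25a24 is red in all 5 knockouts.

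Tubule markers were also lowest in knockout 3 and nearest the controls in knockout 5. The mean of 19 proximal tubule markers deviated from the control mean by -0.16, -0.17, -0.29, -0.08 and -0.04 in knockout kidneys 1 to 5, against -0.03 to 0.05 in control kidneys. Of these markers 5 were called lower and 0 higher (7 and 0 at an unadjusted p of 0.05), with a median of -0.10, among them the amino acid transporter Slc7a13 (-0.54), the glucose transporter Slc5a2 (-0.46) and the dicarboxylate transporter Slc13a3 (-0.42). By limma, 2.67% of all genes were called lower and 5.35% higher, and 12% and 10.9% at an unadjusted p of 0.05. Of 10 thick ascending limb markers 8 were lower and 1 higher by either threshold (median -0.48). The largest called differences among them were Egf at -0.96, Ptger3 at -0.86 and Casr at -0.62. Of 9 intercalated cell markers 8 were lower and 0 higher by either threshold (median -0.54), with Slc26a4 at -1.13, Aqp6 at -0.94 and Slc4a1 at -0.74. Of 7 distal convoluted tubule markers 3 were lower and 0 higher (5 and 0 at an unadjusted p of 0.05). The lower ones were Pvalb at -0.65, Calb1 at -0.54 and Trpm6 at -0.37. Of 8 principal cell markers 2 were higher and 1 lower (3 and 2 at an unadjusted p of 0.05). The called ones were Aqp2 at 0.94, Aqp3 at 0.54 and Scnn1a at -0.39. Their part in the lower Slc25 values was not tested.

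**Figure D5:**
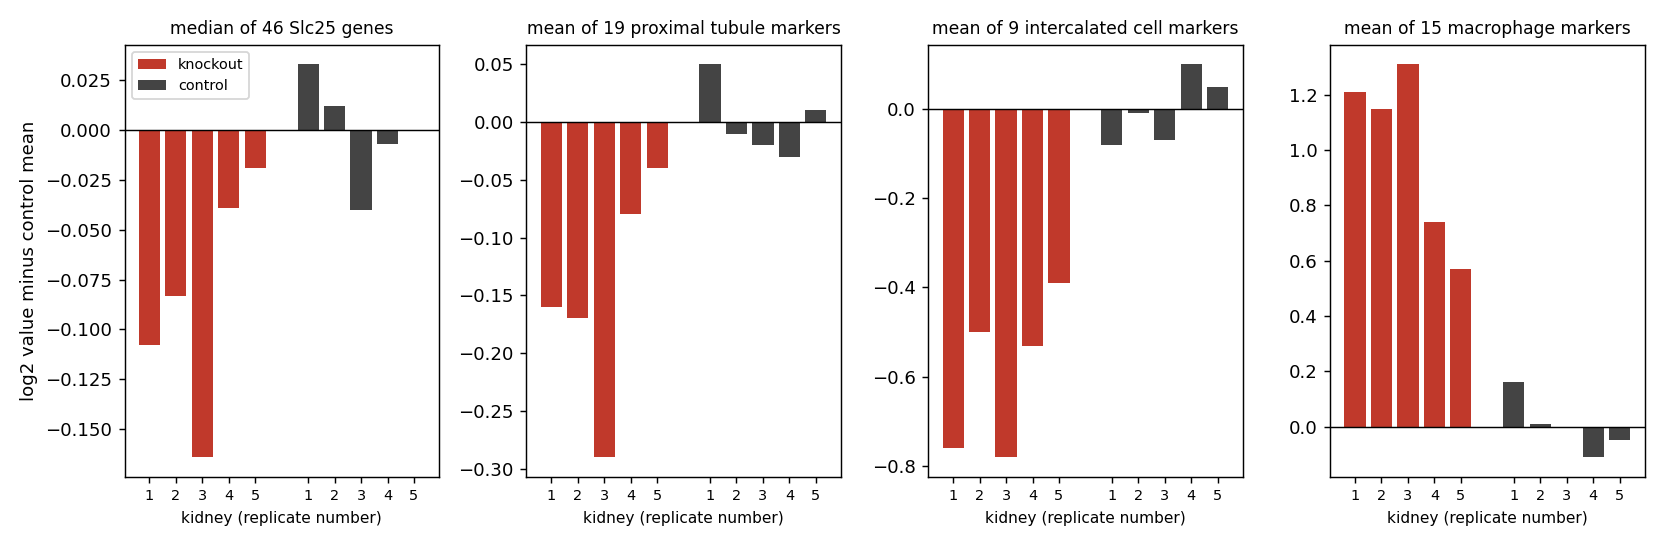
Deviation from the control mean, in log2 units, of the median of 46 Slc25 genes and of the means of 19 proximal tubule, 9 intercalated cell and 15 macrophage markers, 1 bar per kidney, with knockouts in red and controls in dark grey and a separate scale in each panel. Knockout 3 has the lowest Slc25 and tubule bars and the highest macrophage bar (1.31), and knockout 5 has the smallest deviation of the knockouts in all 4 panels.

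Few markers of other cells and tissues passed the threshold, which 8.03% of all genes passed. Of 8 measured lymphocyte markers 2 were higher and 0 lower, Cd4 (0.95) and Cd3e (0.33). None of 7 endothelial, 4 podocyte, 7 adipocyte, 6 adrenal cortex or 6 skeletal muscle markers passed (0 higher and 1 lower at an unadjusted p of 0.05, Kdr at -0.18). The genes with the smallest p in the other 4 of these lists were Nphs1 (-0.10), Lep (-0.13), Star (-0.10) and Acta1 (0.07). Of 3 measured erythrocyte markers Slc4a1 was lower, a gene that the intercalated cell list also holds.

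Most enzymes that the carriers serve did not pass the threshold, by which 2.67% of all genes were lower and 5.35% higher. At an unadjusted p of 0.05 by limma, 12% of all genes were lower and 10.9% higher. Of 15 measured ATP synthase genes, 3 were lower and 0 higher (median -0.09), namely Atp5k (-0.18), Atp5a1 (-0.16) and Atp5pb (-0.16), and at an unadjusted p of 0.05 the counts were 6 and 0. Of 21 TCA cycle genes, 5 were lower and 0 higher (median -0.15), with the succinyl-CoA ligase gene Sucla2 at -0.24, isocitrate dehydrogenase Idh2 at -0.23 and the pyruvate dehydrogenase subunit Dlat at -0.19. At an unadjusted p of 0.05, 15 were lower and 0 higher. For the malate-aspartate shuttle and citrate export, 1 of 8 enzymes was lower and 0 higher, the cytosolic malate dehydrogenase Mdh1 (-0.14), and at an unadjusted p of 0.05 these counts were 1 and 2.

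Single genes of carnitine and arginine metabolism held larger differences in both directions, while the list medians were -0.13 and -0.08. Of 10 genes of the carnitine shuttle and uptake, 2 were lower and 1 higher (4 and 1 at an unadjusted p of 0.05 by limma). Over all genes 2.67% were lower and 5.35% higher, and 12% and 10.9% at that unadjusted p. Cpt1b, the muscle-type acyltransferase of the outer membrane that makes the substrate of Slc25a20, fell to 8.63 ± 0.11 in knockout kidneys, against 9.21 ± 0.15 in control kidneys (SD, n = 5 each; -0.58, SE 0.07, adjusted p = 0.000847). The organic cation transporter Slc22a4 was lower (-0.42), and Bbox1, the last enzyme of carnitine synthesis, was higher (0.82, adjusted p = 0.00782). Of 8 ornithine and arginine enzymes, 2 were lower and 1 higher (3 and 1 at an unadjusted p of 0.05). The mitochondrial arginase Arg2, which makes ornithine in the matrix, was 2.07-fold higher, at 9.39 ± 0.24 in knockout kidneys and 8.34 ± 0.29 in control kidneys (SD, n = 5 each; adjusted p = 0.000974). The ornithine aminotransferase Oat (-0.21) and the creatine-pathway enzyme Gatm (-0.25) were lower.

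In the remaining lists few genes passed the adjusted threshold, by which 2.67% of all genes were lower and 5.35% higher. More were lower at an unadjusted p of 0.05 by limma, where 12% of all genes were. Of 12 glycine and one-carbon enzymes, Mthfd1 was lower (-0.26) and Mthfd1l higher (0.25). Of 12 measured haem and iron-sulphur genes, 3 were lower and 0 higher, Abcb10 (-0.21), Cpox (-0.18) and Alad (-0.17), and at an unadjusted p of 0.05 the counts were 5 and 0. Of 14 regulators of mitochondrial biogenesis, 2 were lower and 0 higher (0 higher and 10 lower at an unadjusted p of 0.05; median -0.17). They were the nuclear receptor Esrrg (-0.32, adjusted p = 0.0016) and Tfam, the packaging and transcription factor of mitochondrial DNA (-0.27, adjusted p = 0.019). None of 17 carriers and channels outside the Slc25 symbols passed by limma (0 higher and 6 lower at an unadjusted p of 0.05), with sideroflexin Sfxn5 at -0.17. None of 11 genes of carrier import into the inner membrane passed by limma (0 higher and 2 lower at an unadjusted p of 0.05), with Timm22, the channel of the carrier translocase, at -0.17 (adjusted p = 0.121).

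Some Slc25 genes stand next to each other in the genome, and differences between neighbours were not tested. Slc25a24 (0.94) and Slc25a54 (-0.08) are neighbours on chromosome 3, and the signal of Slc25a54 lay below the negative control median. Slc25a41 (-0.12) and Slc25a23 (-0.09) lie 2056 bases apart on chromosome 17, and Slc25a29 (-0.02) and Slc25a47 (-0.08) lie 13956 bases apart on chromosome 12. On the X chromosome 18289 bases separate Slc25a43 (0.01) from Slc25a5 (-0.07).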

How the data were processed

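The authors deposited 1 log2 value for each transcript cluster and array, made with RMA on the mm10 build, per the submitters' processing notes. Software version: not given in the sources used here. RMA normalizes the arrays together and summarises all probes of a transcript, and the log2 scale was read from the range of the values. Scan dates and other batches are not given in the labels. Of 72688 rows, 30604 had 1 gene symbol in the platform annotation, 2146 had several and 39938 had none. Symbols were updated through Entrez identifiers for 827 rows and rows of a gene were averaged, which gave 30142 genes. Arrays carry no read depth, and precision rests on 5 arrays a group.

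The genotypes were tested in limma 3.58.1 (R 4.3.3) by lmFit and eBayes with a mean-variance trend, two-sided, with Benjamini-Hochberg adjustment over all genes and a threshold of 0.05. No dim genes were left out and no covariate was used. The signal of 5222 negative control rows (median 5.10 to 5.37 per array) served as background. The fit was tested on simulated data. Promoter windows are the 250 bases before each annotated transcript start, and a start can lie inside the annotated gene. Tables used Python 3.11.15, pandas 2.3.3 and scipy 1.17.1, and plots matplotlib 3.10.9.

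The members and the lists of partner genes and markers were chosen with earlier results of these data known. All 46 members are given. Values by kidney are shown for the members past the threshold, the 4 with the brightest signal, the 3 with the largest difference among the rest and Slc25a30. From each other list the text names at most 3 called genes, those of greatest difference, or the gene of smallest p where none was called. Alternatives were the trend, quantile normalization, centring, a filter on dim genes, single rows, array weights, the replicate number as a block, platform symbols, a minimum fold of 1.1 (limma treat) and leaving out each array.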

Additional observations from a re-analysis of the deposited data

Results flagged for a closer look

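Of 94 groups of 5 kidneys checked (46 Slc25 genes and Stk11 in both groups), 3 held a kidney far from the other 4, past Dixon's 95% critical value, which by its definition chance passes in about 1 in 20 groups. Control 2 had the highest Slc25a36 signal of the controls, 8.81, with the other controls at 8.66 to 8.68. Control 1 had the highest Slc25a39 signal, 10.17, with the other controls at 10.01 to 10.05. Knockout 5 had the lowest Slc25a53 signal of the knockouts, 5.48, with the others at 5.55 to 5.57. None of these 3 genes passed the threshold.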

How the results depend on the processing

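Of the calls, Slc25a24 held under every alternative run and Slc25a35 under all but a minimum fold of 1.1 (adjusted p = 0.253). Slc25a3 and Slc25a11 lost their calls with a minimum fold of 1.1 (adjusted p = 1 for both) and in the settings given with their values. The count of lower Slc25 genes was 3, and it became 12 after quantile normalization (1084 lower genes in all), 1 with arrays centred on their medians (610 in all), 8 with dim genes left out (922 in all), 8 with array weights (1142 in all) and 0 with a minimum fold of 1.1 by limma treat (1 at an unadjusted p of 0.05). The count of higher Slc25 genes was 1, and it became 2 with dim genes left out and with array weights, where Slc25a45 joined Slc25a24. Over all genes 1614 were higher and 806 lower, and with a minimum fold of 1.1 these counts were 402 and 115. Leaving out 1 kidney gave 1 to 2 higher and 1 to 10 lower Slc25 genes, a median difference of the family from -0.089 to -0.068, and 1089 to 1942 higher and 437 to 1470 lower genes in all. The 2 higher genes came without control 2 and without knockout 3. The 10 and the 1470 both came without knockout 5, and the count of 1 lower gene came without knockout 1, 2 or 3 and without control 1, 2, 4 or 5. Filtering dim genes left 43 Slc25 genes and 19499 genes to adjust over. For the other changes the cause was not tested.

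With the replicate number of the titles as a block, 2 Slc25 genes were higher and 5 lower, and 1826 genes were higher and 955 lower in all. Slc25a45, Slc25a12, Slc25a15 (adjusted p = 0.0242) and Slc25a32 (0.0467) gained calls, and that of Slc25a11 was lost (0.0652). The numbers share no stated litter or day, and deviations of same-numbered kidneys correlated at -0.08 to 0.31. For 7 of 10 arrays, the best match among the 5 arrays of the other group had the same number. Whether the numbers mark a shared step was not tested, and the main fit leaves them out. No member changed the sign of a called difference. Signals near the negative controls (Slc25a2, Slc25a31, Slc25a54) limit what can be said of those genes.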
